A study of Mus musculus with 4 samples.

Results

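The type I interferon antiviral response was examined through 9 genes, Ifit1, Ifit2, Ifit3, Isg15, Irf7, Oasl2, Stat2, Rsad2 and Bst2, among 40137 gene units in muscle RNA-seq libraries of aging mice. The 9 were chosen as named genes of this response, and each was found under its Ensembl gene ID as a unit of its own, with 0 of them joined to another gene. Libraries came from thigh skeletal muscle of wild-type males of the inbred strain C57BL/6J, with 3 libraries at 28 months and 1 library at 18 months. No treatment or engineered allele is given for either age, and the sequencing was meant to check a splicing analysis made on exon arrays. The labels do not say whether the 28-month libraries came from separate animals, so the p-values measure the spread between these libraries, which may be technical.

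Type I interferons are secreted when a cell senses foreign nucleic acid. They bind the receptor IFNAR, whose kinases JAK1 and TYK2 activate STAT2, which joins IRF9 in a complex that binds the interferon-stimulated response element (ISRE) of target genes. The targets include proteins that trap viral RNA, block particle release or tag other proteins, and the transcription factor IRF7, which amplifies interferon production. Muscle fibres, vessel cells and resident macrophages can all carry this response. In bulk tissue, fewer cells of a type and less RNA per cell cannot be told apart.

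The ISRE lies near the start site of many of these genes, and the copies found in 6 of the 9 members are shown here because this is the element through which the pathway acts on its targets. The core searched was a pair of GAAA copies with any 2 bases between them, on both strands, in 300 bases of RefSeq promoter (250 before to 50 after the start site, GRCm38.p6). All 9 genes matched a promoter in that table, and 6 of the 9 held the core, against 3.99% of all 27025 genes in the table and 3.44% of the 32851 promoter windows. Each stretch below runs 5′ to 3′ along the gene's own strand, from 10 bases before its first match to 10 bases after its last, with the matched bases in capitals.
Ifit1 (chr19:34640775-34640823, plus strand): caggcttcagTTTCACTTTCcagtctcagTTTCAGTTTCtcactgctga
Ifit3 (chr19:34583363-34583426, plus strand): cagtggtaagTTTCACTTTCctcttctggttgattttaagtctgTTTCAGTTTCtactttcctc
Isg15 (chr4:156200865-156200906, minus strand): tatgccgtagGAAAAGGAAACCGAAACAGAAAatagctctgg
Stat2 (chr10:128270266-128270295, plus strand): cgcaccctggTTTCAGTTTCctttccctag
Rsad2 (chr12:26456553-26456582, minus strand): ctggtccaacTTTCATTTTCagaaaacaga
Bst2 (chr8:71537577-71537612, minus strand): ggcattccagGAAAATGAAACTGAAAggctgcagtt
Isg15 had 3 overlapping matches, between 78 and 57 bases before its start site. Ifit1 and Ifit3 each had 2 separate matches and Bst2 had 2 that overlap. The Stat2 match lay farthest out, ending 213 bases before the start. Ifit2, Irf7 and Oasl2 had no match in their windows, which says only that these letters are absent there. The other interferon element searched, the palindromic GAS core TTCNNNGAA, was in the windows of Ifit2 and Bst2, that is 2 of 9 genes against 9.55% of all genes. In Bst2 the GAS match overlaps the first ISRE match.

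Levels are given as CPM, the count summed over the bins of a gene relative to library size after TMM scaling. Library totals ran from 65780464 to 76163175 counts. The 8 muscle fibre markers had sums of 196689 (replicate 1), 102861 (replicate 2) and 205088 CPM (replicate 3) in the old group, beside 116334 CPM in the younger library. The extraction text describes epidermis, against the tissue label. Of 6 keratinocyte markers, Krt5 and Ivl had 0 counts in every library, which allows up to 3 counts per library, and the list summed to between 0.891 and 1.12 CPM. Counts also lay differently along genes at 18 months. The largest bin of each gene held 40.2% of all counts at 18 months, against 26.7, 26.9 and 25.6% in the 28-month libraries. Bins are pieces of exon between annotated boundaries.

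The 2 members of the signalling and transcription factor class differed from each other in pattern. Irf7, the amplifier of interferon production (ENSMUSG00000025498, GRCm38 chromosome 7, 141262706 to 141266481, minus strand), read 23.3 (replicate 1), 9.57 (replicate 2) and 26.0 CPM (replicate 3) in the old group, beside 10.6 CPM at 18 months. Values below follow the same order. Replicates 1 and 3 were high, while replicate 2 lay just under the 18-month library, so the ages overlapped. The mean at 28 months was 19.6 ± 8.81 CPM (SD, n = 3). The log2 difference, 28 minus 18 months, was 0.88 ± 0.62 (SE), with an edgeR adjusted p of 0.859. The muscle fibre marker sum was high in the same pair of libraries, replicates 1 and 3, and low in the other libraries. Its part in the Irf7 values was not tested. In the annotation used here Irf7 shares 45 exon bases at its 3′ end with Phrf1 on the opposite strand, and the first 3 numbered bins of Irf7, which lie toward that end, had 0 counts in all libraries.

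Stat2, a subunit of the complex that binds the ISRE (ENSMUSG00000040033, chromosome 10, 128270559 to 128292849, plus strand), stood at 6.63, 10.1 and 5.63 CPM at 28 months, beside 5.30 CPM at 18 months. The 18-month value lay below the others, with 28-month replicate 2 well above. The mean at 28 months was 7.46 ± 2.36 CPM (SD, n = 3), and the log2 difference of 0.50 ± 0.45 (SE) did not pass (edgeR adjusted p 0.885). In its largest bin alone, the last of 25, the log2 difference of Stat2 was 0.30 ± 0.32 (SE) with factors estimated on the largest bins of all genes. That bin had 2.47, 2.69 and 2.10 CPM at 28 months, beside 2.66 CPM at 18 months, scaled as the gene sums. With that scaling the log2 difference was -0.13 ± 0.32, where the median of all genes was -0.37.

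The IFIT proteins bind viral RNA and block its translation, and their 3 genes lie in a cluster on chromosome 19. All 3 were highest at 18 months, and none passed the test. Ifit1 (ENSMUSG00000034459, 34640871 to 34650009) stood at 2.01, 2.34 and 3.01 CPM at 28 months, beside 3.18 CPM at 18 months. The 18-month value is close to that of replicate 3, and the log2 difference was -0.37 ± 0.44 (SE, edgeR adjusted p 0.898). Ifit2 (ENSMUSG00000045932, 34550694 to 34576419) stood at 3.50, 4.21 and 4.85 CPM at 28 months, beside 6.43 CPM at 18 months. The gap there was wider than the range of the 28-month values, with a log2 difference of -0.62 ± 0.35 (SE, edgeR adjusted p 0.859). Ifit3 (ENSMUSG00000074896, 34583531 to 34588731) stood at 5.72, 3.87 and 6.38 CPM at 28 months, beside 6.85 CPM at 18 months, for a log2 change of -0.37 ± 0.40 (SE, edgeR adjusted p 0.897). Replicates 1 and 3 were close to the 18-month library and replicate 2 was low.

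Ifit3 has a near copy, Ifit3b, with 97.8% identity over 1700 aligned bases of the 1745-base transcript, so reads may have been split between them. Ifit3b stood at 2.59, 2.81 and 3.01 CPM at 28 months, beside 3.88 CPM at 18 months. Its log2 difference was -0.47 ± 0.37 (SE, edgeR adjusted p 0.868). Because of the possible split, its higher 18-month value may not be independent of that of Ifit3. Ifit1 matched its relative Ifit1bl2 at 84.5% over 801 bases.

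Oasl2, a relative of the 2′-5′ oligoadenylate synthetases that sense double-stranded RNA (ENSMUSG00000029561, chromosome 5, 114896936 to 114912234, plus strand), varied least among the old libraries. It stood at 4.52, 4.37 and 4.79 CPM at 28 months, beside 6.73 CPM at 18 months. The 28-month mean was 4.56 ± 0.212 CPM (SD, n = 3), and the 18-month value lay well above all 3. The log2 difference of -0.56 ± 0.31 (SE) did not pass over all genes (edgeR adjusted p 0.859).

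Rsad2 encodes viperin, which makes a nucleotide that stops viral RNA chains (ENSMUSG00000020641, chromosome 12, 26442746 to 26456452, minus strand). It varied most, at 1.96, 3.46 and 7.98 CPM at 28 months, beside 4.08 CPM at 18 months. The highest 28-month library had 4.07 times the lowest, and the 18-month library lay inside that range. The log2 difference was 0.13 ± 0.81 (SE, edgeR adjusted p 0.980).

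Isg15, a ubiquitin-like protein attached to other proteins (ENSMUSG00000035692, chromosome 4, 156199424 to 156200818, minus strand), stood at 1.29, 1.16 and 2.45 CPM at 28 months, beside 1.24 CPM at 18 months. Replicate 3 stood apart and the other 3 libraries lay together, at 81 to 113 counts. The log2 difference was 0.39 ± 0.65 (SE, edgeR adjusted p 0.930). Without replicate 3 the Isg15 estimate fell to -0.02 and that of Rsad2 to -0.59, so replicate 3 set the sign of both. Neutrophil markers were high in that same library, at 282 CPM against 9.18 and 13.2 CPM in the other old libraries and 4.44 CPM at 18 months, with 4 of 4 genes highest there. The 5 red blood cell markers were also high in it, at 3785 CPM against 378 and 145 CPM in the other old libraries and 183 CPM at 18 months. The part of either list in the Isg15 and Rsad2 values was not tested. Isg15 also matched another annotated transcript, AC151275.1, at 95.2% over 482 bases, so its counts are uncertain.

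Bst2 encodes tetherin, a membrane protein that holds budding virus particles at the cell surface (ENSMUSG00000046718, chromosome 8, 71534255 to 71537456, minus strand). It stood at 14.0, 9.996 and 13.3 CPM at 28 months, beside 7.66 CPM at 18 months. All 3 old libraries lay above the younger one. The mean at 28 months was 12.4 ± 2.13 CPM (SD, n = 3), and the log2 difference of 0.70 ± 0.33 (SE) did not pass (edgeR adjusted p 0.859). It had the smallest unadjusted edgeR p of the members, 0.0902. In its largest bin alone, with the scaling of the gene sums, the difference was 0.64 ± 0.35. Bst2 kept its direction there, as did every member but Stat2. Tetherin is also found on macrophages and plasmacytoid dendritic cells. The 12 macrophage markers had sums of 241, 380 and 427 CPM, beside 184 CPM at 18 months, with all 12 higher at 28 months in estimate. The 4 plasmacytoid dendritic cell markers, of which 2 passed the count filter, had sums of 7.55, 17.1 and 11.8 CPM, beside 5.27 CPM at 18 months. Most of each sum came from Cd209d, at 6.18, 13.1 and 9.26 CPM against 3.50 CPM. Siglech lay within the old range at 18 months. Ccr9 (joined with Gm17200) and Klk1, both below the filter, were highest at 18 months. Among the old libraries Bst2 was lowest in replicate 2, where the plasmacytoid dendritic cell sum was highest. It was highest in replicate 1, where that sum and the macrophage sum were lowest. Against the 18-month library, Bst2 and both sums were higher in every old library. The part of these cells in the Bst2 level was not tested.

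**Figure D1:**
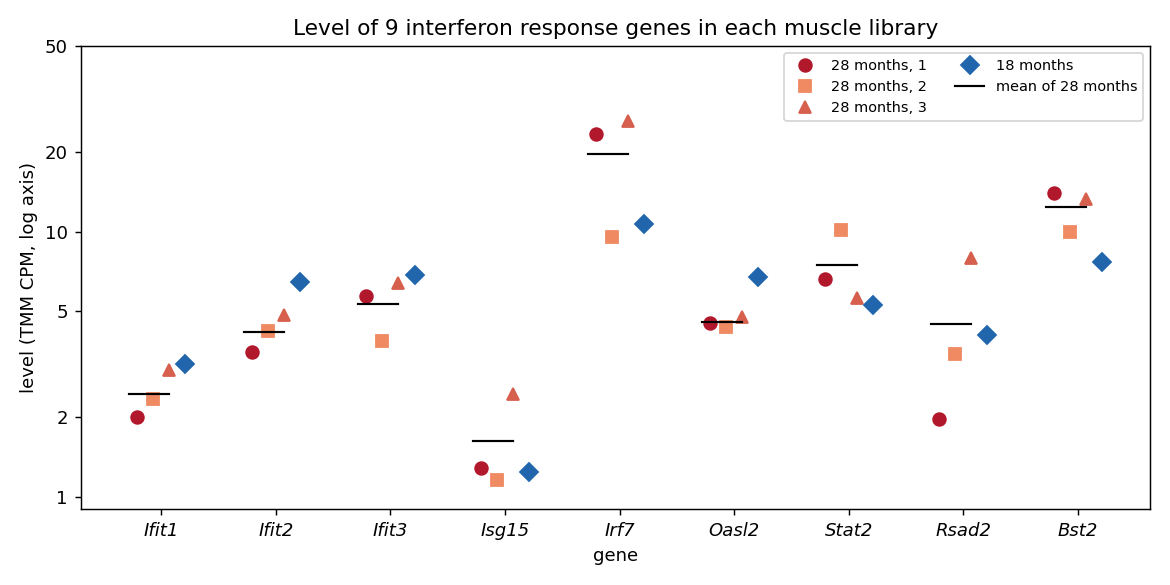
Level of each of the 9 genes (CPM after TMM scaling, log axis) in the 3 libraries at 28 months and the 1 library at 18 months, with a line at the 28-month mean. The 18-month point lies above all 28-month points for Ifit1, Ifit2, Ifit3 and Oasl2 and below them for Stat2 and Bst2.

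The estimates of the 9 genes lay on both sides of 0, with 5 higher and 4 lower at 28 months, and 0 passed the test. At 18 months 4 lay above all 28-month values (Ifit1, Ifit2, Ifit3 and Oasl2), where 26.4% of all 15376 tested genes did. Below all 28-month values lay 2 (Stat2 and Bst2), against 25.4% of all genes, and 3 lay within the range (Irf7, Isg15 and Rsad2), against 48.2%. All 9 passed the filter on low counts. The edgeR quasi-likelihood test called 0 of the 9 and 0 of 15376 genes (0%) at an adjusted p under 0.05. At an unadjusted p under 0.05 it had 0 members, against 753 genes (4.90%), the DESeq2 Wald test called 0 members and 34 genes (0.221%), and limma voom with quality weights called 0 members and 1 gene (0.00650%). The median log2 difference of the 9 was 0.13, beside 0.06 over all tested genes, with a range from -0.62 to 0.88. Their summed level was 62.9, 49.1 and 74.4 CPM at 28 months, beside 52.1 CPM at 18 months. Without Irf7, the sums were 39.6, 39.5 and 48.4 CPM against 41.5 CPM.

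Leaving out 28-month replicate 2 changed the calls. Irf7 then had a log2 difference of 1.24 and passed (edgeR adjusted p 0.0189), as did Bst2 at 0.85 (0.0394). These were 2 of 9 members, where 1806 of 15376 genes (11.7%) were called in that fit, 7.39% in the higher direction. Its residual spread rested on the remaining pair of old libraries alone. Without replicate 1 or replicate 3, 0 members passed, where 2 genes (0.0130%) and 1 gene (0.00650%) were called.

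**Figure D2:**
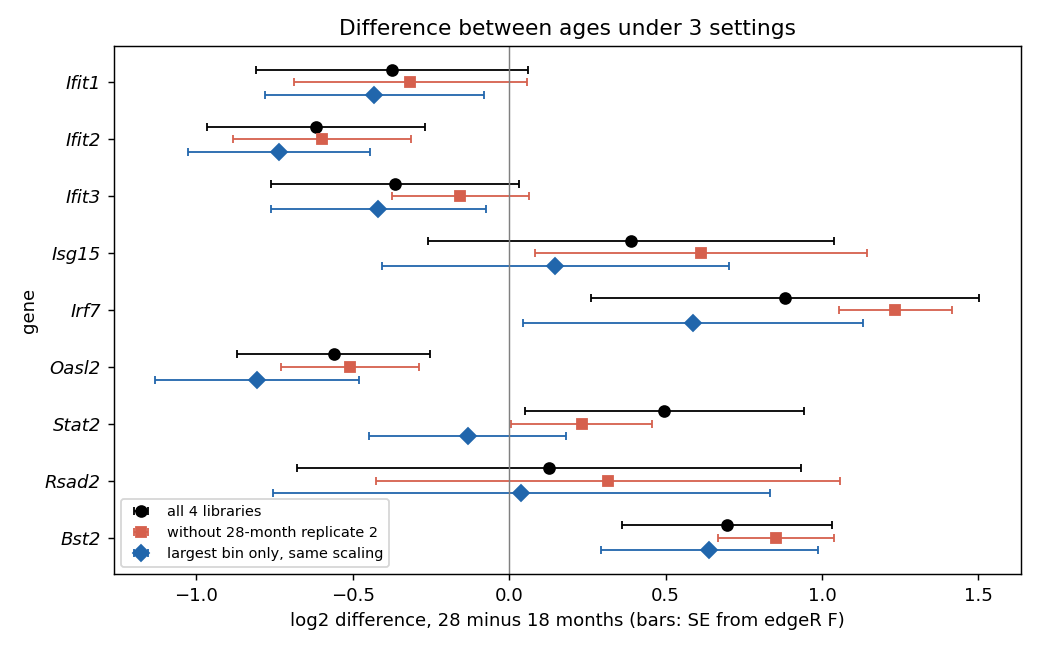
Log2 difference, 28 minus 18 months, of each gene with its SE, for all 4 libraries (black), without 28-month replicate 2 (red) and for the largest bin alone with the scaling of the gene sums (blue). In the blue setting the median of all genes lies at -0.37 and Stat2 at -0.13. Stat2 has 0.50 in its gene sum and 0.30 when the factors are estimated on the largest bins (not drawn). Bst2, Irf7, Isg15 and Rsad2 are positive in all 3 settings.

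Among the old libraries, replicate 3 was highest for 7 of the 9 genes, replicate 2 for Stat2 and replicate 1 for Bst2. How many of all tested genes were highest in replicate 3 was not counted, so this is no result about the members. The median coefficient of variation at 28 months was 24.5% for the members and 24.0% for all tested genes. It ran from 4.65% in Oasl2 to 70.2% in Rsad2. Genes nearest to the gene-wise median profile of the members, by Euclidean distance of centred log2 CPM over 4 libraries, were Ranbp9 (0.0493), Cdkal1 (0.0580), H3f3b (0.0669), Chd7 (0.0825) and Tbc1d4 (0.0848), out of 10985 candidates. That median profile is nearly flat, from -0.16 to 0.22. The members themselves lay farther from it than these genes, at distances from 0.301 (Ifit1) to 1.22 (Irf7).

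**Figure D3:**
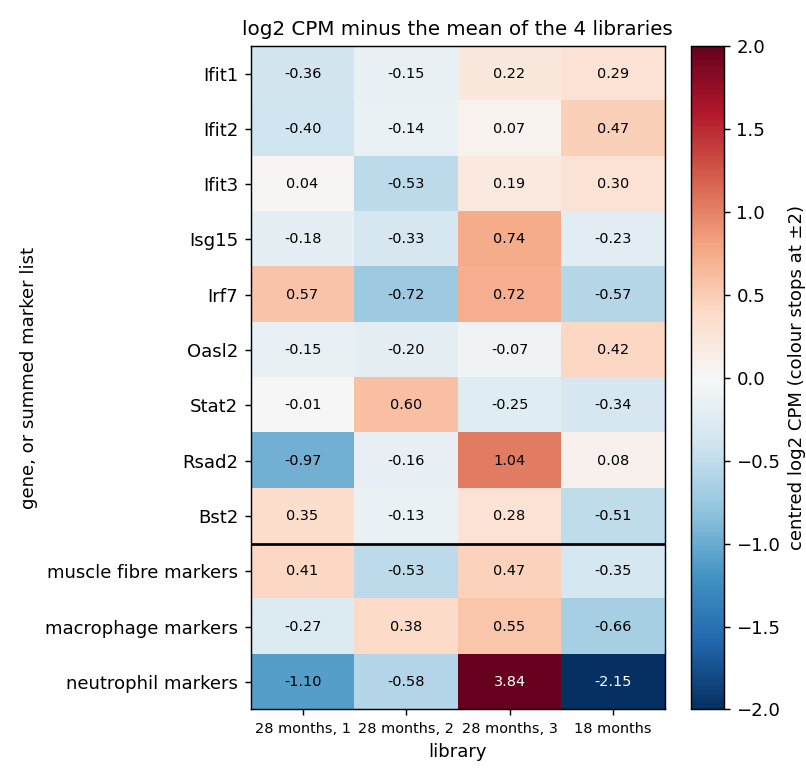
Log2 CPM minus the mean of the 4 libraries for each gene (rows above the line) and for 3 summed marker lists (rows below it), with colour stopping at ±2. Irf7 runs from -0.72 in 28-month replicate 2 to 0.72 in replicate 3, and the neutrophil markers reach 3.84 in replicate 3.

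Levels compared between genes were divided by exon length in the GENCODE M21 annotation, since a longer transcript gives more counts. For Irf7, Oasl2, Stat2, Rsad2 and Bst2 the deposited bins differed in number from those of that annotation. The length that was counted is therefore uncertain in these genes. In the 28-month libraries Bst2 was highest at 13.8 ± 2.36 CPM per kb (SD, n = 3). Irf7 followed at 5.20 ± 2.33, Ifit3 at 3.05 ± 0.746, Isg15 at 2.16 ± 0.942 and Stat2 at 1.26 ± 0.398 CPM per kb. Ifit2 had 1.07 ± 0.172, Rsad2 1.03 ± 0.723, Ifit1 0.923 ± 0.193 and Oasl2 0.715 ± 0.0333 CPM per kb. Only Bst2 stood clear of its neighbour in this order, and each later pair of neighbours overlapped within 1 SD. At 18 months the top was again Bst2, at 8.49 CPM per kb, followed by Ifit3 at 3.92 and Irf7 at 2.82. A fragment that touches several bins may count in each, which would raise the level of genes with many bins, such as Irf7 with 32. The same could raise Bst2, which has 5 bins for 0.903 kb of annotated exon. Its place at the top is therefore uncertain too.

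Use of exon bins did not differ by the test in any member. Of the 9, 8 had at least 2 bins with enough counts, and the edgeR bin usage test called 0 of these 8, against 389 of 11000 genes (3.54%), with an adjusted p of 1.00 for each member. At an unadjusted p under 0.05 it again had 0 members, against 1167 genes (10.6%). Ifit1, with 1 of its 2 bins short of 10 mean counts, was tested only with the lower minimum of 5, where its edgeR adjusted p was 1.00. Members called were also 0 without old replicate 1 (2.05% of genes called), replicate 2 (30.0%) or replicate 3 (1.49%), with limma diffSplice (16.0%) and with bins of at least 5 mean counts (3.81%). The bin of smallest p was bin 18 of Stat2, with 3.46, 4.71 and 6.33% of the gene's tested counts in the old libraries and 0.888% in the younger (exact 95% interval 0.183 to 2.57, counting error only). Its single-bin adjusted p was 0.793 by edgeR. In Irf7 it was bin 29, toward the 5′ end, where 1.61, 2.07 and 2.06% of counts in the old libraries stood beside 0.296% in the younger (exact interval 0.0358 to 1.06). In both bins the 18-month share lay below all old libraries, but both were picked for the smallest p in their gene. That position is therefore no separate result, and how many of all tested bins shared it was not counted.

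The 3′-most tested bin took its highest share at 18 months in 7 of 8 members, and so it did in 9411 of 10974 tested genes (85.8%), so the members followed the background. Its median share over all genes was 32.7% at 18 months and 22.5, 21.1 and 21.9% at 28 months. For Stat2 that bin held 38.1, 27.4 and 38.3% in the old libraries, beside 51.2% in the younger (exact interval 45.7 to 56.6). Isg15 had 75.6, 69.9 and 71.6% against 85.2% (75.6 to 92.1). Ifit2, whose last bin covers 3227 of its 3927 exon bases, had 84.2, 87.0 and 80.5% against 90.7% (87.5 to 93.3). Bst2 had 18.8, 21.4 and 19.6% against 26.5% (22.6 to 30.6). Rsad2 was the exception among the 8, at 68.7, 51.0 and 66.4% against 66.5%.

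**Figure D4:**
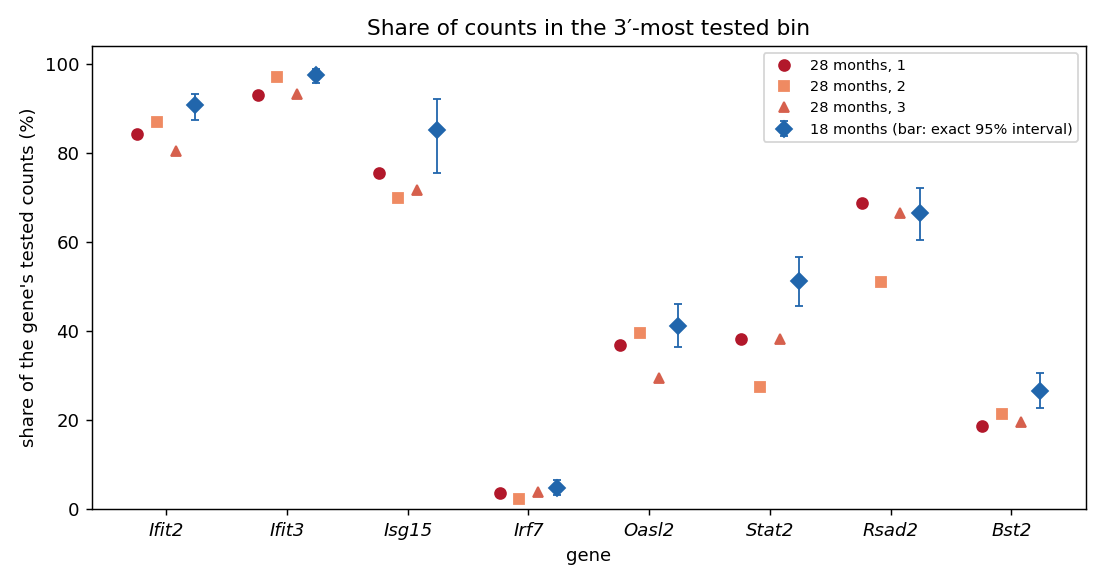
Share of each gene's tested counts in its 3′-most tested bin, for the 3 libraries at 28 months and the 1 library at 18 months with its exact 95% interval. The 18-month share is highest in 7 of 8 genes, and lies inside the 28-month range only in Rsad2.

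When every gene was measured by its largest bin with factors estimated on those bins, the log2 differences of Ifit1 and Ifit3 became 0.01 and 0.01, that of Ifit2 was -0.30 and that of Oasl2 was -0.37. With the scaling of the gene sums kept, they were -0.43, -0.42, -0.74 and -0.81, where the median of all genes was -0.37. The part of the share along genes in any member's level was not tested.

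The rest of the pathway was read from a list of 76 genes by role, of which 75 had a unit, Sting1 being the other. The test called 0 of the 66 that passed the count filter in either direction. At 28 months 42 were higher and 24 lower in estimate, with a median log2 difference of 0.22 beside 0.06 over all genes, where 54.4% of all genes were higher. At 18 months 22 of 66 (33.3%) lay below all old libraries, against 25.4% of all genes, and 7 lay above, against 26.4%.

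Transcripts of the ligands on the list were close to absent, and interferon genes outside it were not read. Of 9 interferon genes, among them Ifnb1 and Ifna4, 8 had 0 counts in every library and Ifna2 had 1 count in 28-month replicate 3. A count of 0 allows up to 3 counts per library, or 0.0308 to 0.0497 CPM. The receptor genes and kinases were plainly present. The kinase gene Jak1 stood at 161, 211 and 185 CPM at 28 months, beside 234 CPM at 18 months, highest at 18 months. Ifnar1, a receptor chain, stood at 10.9, 18.4 and 11.2 CPM against 12.1 CPM, within the old range. Tyk2, the other kinase gene, had a log2 difference of 0.35 ± 0.34 (SE). Ifnar2 was counted jointly with Il10rb and Gm21970, at 0.39 ± 0.38.

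All 5 transcription factor units were higher at 28 months in estimate, and 0 passed. Not all of these units are single genes: Irf9 was counted jointly with Rnf31, at 0.17 ± 0.25 (SE), and another unit also joins several genes. Irf3, the factor first activated by sensors, stood at 16.9, 19.4 and 15.3 CPM against 11.7 CPM. Irf1 stood at 15.9, 22.6 and 15.9 CPM against 12.0 CPM. In both the 18-month library was lowest, as it was for Stat2 and for 25.4% of all tested genes. The log2 differences were 0.55 ± 0.29 for Irf3 and 0.60 ± 0.34 for Irf1 (SE). These genes were named for a small p in their role, so that position is no separate result. Irf5, a factor of myeloid cells, had 0.36 ± 0.43.

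All 4 units of ISG15 conjugation were also higher in estimate. Usp18, which removes ISG15 and dampens the receptor, stood at 6.41, 4.98 and 6.06 CPM at 28 months, beside 4.13 CPM at 18 months. Herc6, the ligase, had a log2 difference of 0.63 ± 0.47 (SE). Ube2l6, the conjugating enzyme, stood at 12.1, 10.9 and 38.5 CPM against 12.3 CPM, high only in replicate 3, as Isg15 was. The neutrophil and red blood cell marker sums were also high in that library. Their part in the Ube2l6 level was not tested. Uba7, the activating enzyme, was counted jointly with 4 neighbours, among them Ip6k1, at 0.42 ± 0.37.

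Of 13 sensor and adaptor genes, 8 were higher and 5 lower at 28 months in estimate. Dhx58, a relative of the RNA sensor RIG-I, stood at 3.74, 2.81 and 2.87 CPM at 28 months, beside 2.03 CPM at 18 months. Zbp1, which binds Z-form nucleic acid, had a log2 difference of 0.79 ± 0.59 (SE). Tlr7, a receptor for single-stranded RNA, had 0.76 ± 0.69. Ticam1, the adaptor of TLR3, went the other way, at -0.48 ± 0.40.

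Among 35 antiviral effectors 19 were higher and 16 lower in estimate, a median of 0.06. The edgeR test gave 2 of these 35 an unadjusted p under 0.05, both higher. They were also the only 2 among the 66 tested pathway genes. Of all 15376 tested genes, 753 (4.90%) had such a p, and 390 of those were higher. Ifi27l2a, an interferon-induced gene, stood at 226, 350 and 192 CPM at 28 months, beside 109 CPM at 18 months (log2 difference 1.24 ± 0.47 SE, edgeR adjusted p 0.859). Epsti1, also interferon-induced, stood at 3.17, 4.60 and 4.84 CPM against 1.86 CPM (1.18 ± 0.45 SE, edgeR adjusted p 0.859). Both had the 18-month library lowest, as 25.4% of all tested genes did. They were named for the smallest p in their role, so that position is no separate result. Ifi27 and Lgals3bp followed, with 0.65 ± 0.38 and 0.45 ± 0.26. Without 28-month replicate 2, Ifi27 and Ifi27l2a were the 2 of 66 pathway genes called, both higher, where 11.7% of all genes were called and 7.39% were called higher. Among 5 negative regulators, Socs3, a brake on JAK signalling, stood at 1.47, 20.6 and 3.06 CPM at 28 months, beside 2.12 CPM at 18 months, high in replicate 2 alone, with a log2 difference of 1.98 ± 1.64 (SE). Socs1, at 1.26 ± 1.98, was likewise high only there. Ptpn2, a phosphatase that acts on JAK1, had -0.22 ± 0.24, and Trex1, a nuclease counted jointly with Atrip, had 0.13 ± 0.36.

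**Figure D5:**
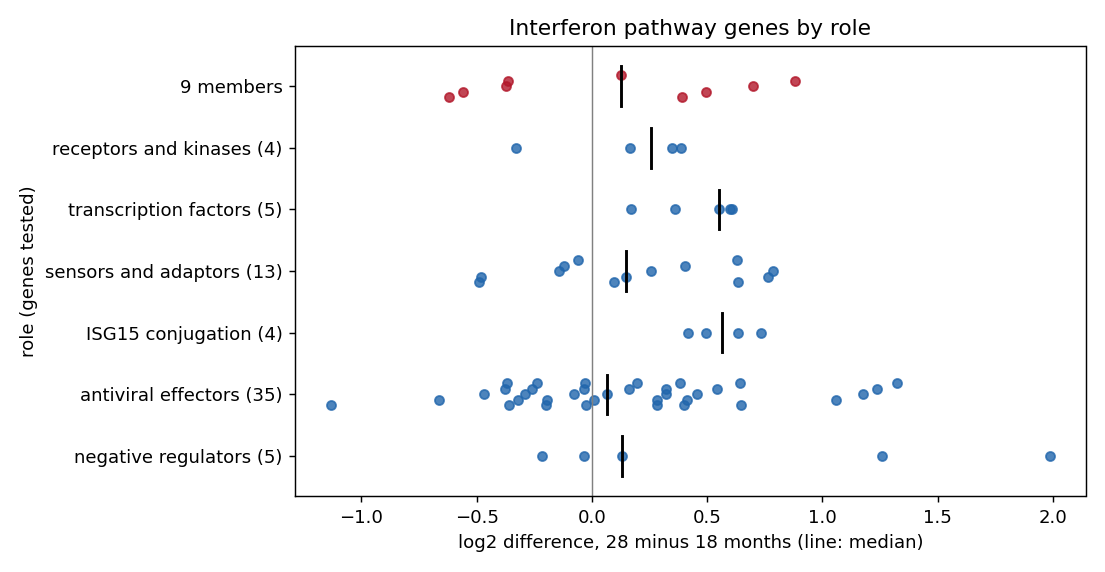
Log2 difference, 28 minus 18 months, of the 9 genes (red) and of the 66 tested pathway genes by role (blue), 1 point a gene, with a line at each median. The 5 transcription factor units and the 4 ISG15 conjugation units are all above 0, while effectors lie on both sides.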

How the data were processed

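The authors deposited 1 table of raw counts for each library, by exonic bin. bcl2fastq 1.8.3, TopHat2 2.0.4 and GRCm38 are named per the submitters' processing notes. Which counter, annotation release and strand setting were used is not given in the sources used here. Each table ended with entries that name no gene; these 5 made up 3.36 to 5.20% of counts and were left out.

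Bins were summed per gene unit (949 units join several genes). Units with a mean of at least 10 counts over the 4 libraries were tested with edgeR 4.0.16 (quasi-likelihood, TMM factors of 0.877, 1.28, 0.897 and 0.990, Benjamini-Hochberg over 15376 units). The SE is the size of the log2 difference over the root of F. The 2 residual degrees of freedom came from the 28-month libraries alone, and the 18-month library was assumed to vary like them. Bin usage was tested with diffSpliceDGE (Simes) on bins of at least 10 mean counts. Alternatives used DESeq2 1.42.0 and limma 3.58.1 in R 4.3.3, and transcripts were compared with BLAST 2.17.0. The fits were tried on simulated data whose spread between libraries was set smaller than in these data. That trial does not show how large a difference could be detected here.

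Positions came from GENCODE M21 (GRCm38) and promoters from RefSeq (GRCm38.p6). The bin number equalled that of the flattened annotation in Ifit1, Ifit2, Ifit3 and Isg15. Elsewhere bin order was read as genome order. The members and lists were chosen with earlier results of these data known. Pathway genes named were up to 4 of the smallest p in each role, plus ligands at 0, and the 5 genes nearest in profile; 1 gene that the rule names is not reported here. Genes outside this rule (Ifit3b, Ifit1bl2, Irf9, Krt5, Ivl, Cd209d, Siglech, Ccr9 and Klk1) were named after their values were seen. Exact intervals are Clopper-Pearson.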

Additional observations from a re-analysis of the deposited data

How the results depend on the processing

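No paired analysis was possible because the single 18-month library shares fewer than 2 replicate numbers with the 28-month group. The members called stayed at 0 under DESeq2 size factors, other count filters, totals that left out the 20 top genes and mitochondrial ones, the DESeq2 Wald test, limma and largest bins, and ranged from 0 to 2 when 1 old library was left out. Genes called over the whole table went from 0 to 34 with DESeq2, to 1 with limma voom, and ranged from 1 to 1806 with 1 old library left out, where the members' median ran from -0.52 to 0.48. Leaving out replicate 3 turned Isg15 to -0.0247 (0.61 without replicate 2) and Rsad2 to -0.59. Without replicate 2, Irf7 (1.24) and Bst2 (0.85) passed. Largest bins turned Ifit1 to 0.00659 and Ifit3 to 0.00864, and, with the scaling of the sums (chosen after seeing the data), turned Stat2 to -0.13; the median of all genes then moved to -0.37, and the largest bins' share of counts differed by library. The cause of the other changes was not tested. Bin usage calls went from 389 genes to 1765 with limma diffSplice and ranged from 164 to 3299 with 1 old library left out, always with 0 members. By the largest bin, levels at 28 months were 3.49 (Ifit2), 1.97 (Irf7), 1.52 (Oasl2), 2.42 (Stat2) and 3.04 CPM (Bst2), and at 18 months 1.31 (Irf7), 2.66 (Oasl2), 2.66 (Stat2) and 1.95 CPM (Bst2). Plain totals moved no level by more than 1 SD. With 81 to 148 counts in Isg15, changes smaller than its spread were not detectable. Larger changes could be missed too, in any member. The edgeR test on all 4 libraries called 0 of 15376 genes, with a smallest adjusted p of 0.859. A missing call therefore does not show equal levels at both ages.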
